A study of Mus musculus with 4 samples.

Results

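The cathepsins, legumain and cystatin C form the core of the endolysosomal protein-degrading machinery of macrophages, and 10 of their genes were followed through tumor-associated macrophages (TAMs) of mouse B16-F10 melanoma with and without Trim24. The genes were taken by name: the cysteine cathepsins Ctsb, Ctss, Ctsz, Ctsc, Ctsh and Ctsl, the aspartic cathepsin Ctsd, the serine carboxypeptidase Ctsa, the asparaginyl endopeptidase Lgmn and the inhibitor Cst3. All 10 had a value in every library, of the 16739 genes that were measured in at least 1 of them. Both groups were C57BL/6 mice that received B16-F10 cells, a transplantable melanoma line of the same strain, under the skin of the abdomen at an age of 6 to 8 weeks. TAMs were sorted on day 16 as CD45+ CD11b+ F4/80+ cells, a gate for leukocytes with myeloid and macrophage surface proteins. The WT group (2 libraries) came from littermates without the deletion, and the Trim24-deficient group (2 libraries, genotype label Trim24-/-) from mice in which a floxed Trim24 allele was removed by LysM-Cre, which is active in macrophages, monocytes and neutrophils and leaves the gene intact in other cells. The sources used here do not say whether a library came from 1 mouse or from pooled mice, so every p-value measures the spread between these 4 libraries, which may be technical.

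Cathepsins are made as inactive precursors, tagged with mannose 6-phosphate, carried to endosomes and lysosomes and switched on there by acid and by cleavage. Macrophages use them to digest engulfed cells and matrix and to trim the invariant chain and antigens for MHC class II, and they also secrete them into the tumor. Legumain cuts after asparagine and processes several cathepsins to their mature forms, while cystatin C is secreted and blocks papain-like cysteine cathepsins. Stat6 is the transcription factor that drives the alternative programme of macrophages, the study followed Trim24 as a regulator of it, and the comparison addresses whether lysosomal protease transcripts differ when Trim24 is removed from myeloid cells.

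The libraries held 4476122 to 5172407 expected counts. The Trim24 transcript itself did not separate the labels. On the CPM scale (TMM-scaled counts relative to library size) WT replicates 1 and 2 had 5.86 and 2.08, and deficient replicates 1 and 2 had 3.41 and 0.411, the last of these under the floor of 3 counts. The group of each library therefore rests on its label. Between the groups the log2 fold change of Trim24, −1.06, had an adjusted p of 0.635 (edgeR quasi-likelihood test, Benjamini-Hochberg over 11302 genes). Sex-linked transcripts followed the genotype split: Xist was at 10.9 and 6.46 CPM in WT and at 437 and 256 CPM in the deficient libraries, while Ddx3y was at 73.7 and 102 CPM against 0.426 and 0.411 CPM. The study describes the mice of its tumor models as matched for sex, which these transcript levels do not show for the 4 libraries. All 10 genes described here are autosomal, but an effect of sex and one of Trim24 cannot be told apart in this design. The 9 macrophage markers were all detected, with summed levels of 12800 to 14500 CPM in WT and 15300 to 16400 CPM in the deficient libraries. Of these, 5 were higher in the deficient libraries without overlap and 0 lower. The 6 monocyte markers summed to 568 and 732 CPM in WT and to 1760 and 1210 CPM in the deficient libraries. There 5 of the 6 were higher without overlap and 0 lower. Among all genes tested, 21.4% were higher without overlap and 23.0% lower. The neutrophil markers summed to 176 and 206 CPM in WT and to 271 and 409 CPM in the deficient libraries, with Mpo and Elane at 0 in all 4. Of the 4 tested, 3 were higher without overlap and 0 lower. T and NK cell markers spanned 60.4 to 191 CPM, and melanoma markers spanned 585 to 789 CPM, both with overlapping sums, although 3 of the 6 melanoma markers (Mlana, Dct and Tyrp1) were lower in both deficient libraries. No list of dendritic cell, B cell, mast cell or fibroblast and endothelial markers summed to more than 80.1 CPM in any library. Of the 5 dendritic cell markers tested, 2 (Flt3 and Cd209a) were lower without overlap and 0 higher. The part of these cells in the results was not tested.

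The start regions of these genes are shown because lysosomal genes are known for a shared E-box, CACGTG, the core of the element bound by TFEB and its relatives. RefSeq promoter windows (GRCm38.p6, 250 bases before to 50 bases after a start) covered 10 starts of 8 of the genes, and those of Ctsb and Ctsh were not used here. CACGTG, which reads the same on both strands, lay in 4 of the 10 windows, one each of Ctsd, Ctsa, Ctsl and Lgmn, and in 7.15% of all 32851 RefSeq windows of that length. The 250 bases before the Ctsd start (chr7:142387828-142388077, minus strand, given 5′ to 3′) hold it 2 times, 245 and 98 bases before the start, shown in capitals. The 250 bases before the Ctss start (chr3:95526536-95526785, plus strand) hold none, but 21 bases before the start they hold GAAA repeated after 2 bases of any kind, the pattern of an interferon-stimulated response element, again in capitals. That pattern was searched on both strands after the Ctss sequence had been read, and occurred in 1 of the 10 windows and in 3.44% of all windows.
Ctsd: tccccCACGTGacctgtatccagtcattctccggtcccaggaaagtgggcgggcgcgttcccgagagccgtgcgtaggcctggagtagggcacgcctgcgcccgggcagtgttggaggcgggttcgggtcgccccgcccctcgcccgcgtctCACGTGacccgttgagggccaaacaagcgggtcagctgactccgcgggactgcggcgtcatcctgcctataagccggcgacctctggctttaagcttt
Ctss: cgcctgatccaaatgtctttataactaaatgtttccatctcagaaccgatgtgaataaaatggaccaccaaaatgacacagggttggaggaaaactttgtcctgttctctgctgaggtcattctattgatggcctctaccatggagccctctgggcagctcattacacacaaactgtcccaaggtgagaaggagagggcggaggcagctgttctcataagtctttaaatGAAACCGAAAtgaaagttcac

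For the other genes with an E-box only the motif and its flanks are given, with the motif in capitals. In Ctsa (chr2:164833758-164833786, plus strand) the pair of E-boxes lies 12 bases before and 6 bases after a start that is 901 bases inside the outermost RefSeq boundary of the gene. In Ctsl (chr13:64370741-64370766, minus strand) the E-box lies 236 bases before a start that is 252 bases inside the boundary. In Lgmn (chr12:102439126-102439151, minus strand) it lies 49 bases before a start that is 636 bases inside the boundary, and this was the only one of the 10 starts not matched to a GENCODE transcript.
Ctsa: tgtCACGTGatgcagatgctCACGTGacc
Ctsl: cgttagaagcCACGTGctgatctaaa
Lgmn: gaatgtctgtCACGTGgtccatttta

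The windows of Ctsc, Ctsz and Cst3 and the outer windows of Ctsa and Lgmn held no CACGTG. TTC and GAA with 4 bases of any kind between them, the binding pattern of Stat6, is the same on both strands and was in 0 of the 10 windows and in 6.95% of all windows. A match is a description of letters and not a measured site.

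All 10 genes were among the most abundant transcripts of the sorted cells. Ranked by FPKM, a level per transcript length that allows genes to be compared, every gene stood between rank 13 and rank 455 in every library, and 6 of the 10 were among the top 100 genes in all 4 libraries. Ctsb, Ctss and Lgmn were within the top 25 in each library, and Ctsd missed that only in Trim24-deficient replicate 1, at rank 28. Together the 10 genes made up 2.45% and 2.586% of all FPKM in WT and 2.641% and 2.864% in the deficient libraries, a mean of 2.518% ± 0.0966 against 2.753% ± 0.158 (SD, n = 2 each). The summed level was therefore lowest in WT replicate 1 and highest in Trim24-deficient replicate 2, and the groups did not overlap. As a share of all expected counts of a library, without TMM scaling, the sums were 3.443%, 3.474%, 3.682% and 4.09% in the same order. In bulk RNA, a different number of cells of a type and a different amount of RNA per cell cannot be told apart.

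In WT TAMs the order of mean FPKM was Ctsd (2699), Lgmn (2629), Ctsb (2514), Ctss (2178), Cst3 (1473), Ctsz (1339), Ctsc (522), Ctsh (380), Ctsa (367) and Ctsl (213). Neighbours in this order were apart in both WT libraries except Ctsd with Lgmn and Ctsh with Ctsa, whose ranges overlapped. In the deficient libraries Ctss (3204) came first, followed by Ctsb (2887) and Lgmn (2765), with Ctsd (2181) next, and the ranges of Ctss and Ctsb, of Ctsb and Lgmn, of Ctsz and Cst3 and of Ctsh and Ctsa overlapped. The position of Ctsl as the lowest, Ctsc as the 7th and the Ctsh and Ctsa pair between them was shared by both groups.

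**Figure D1:**
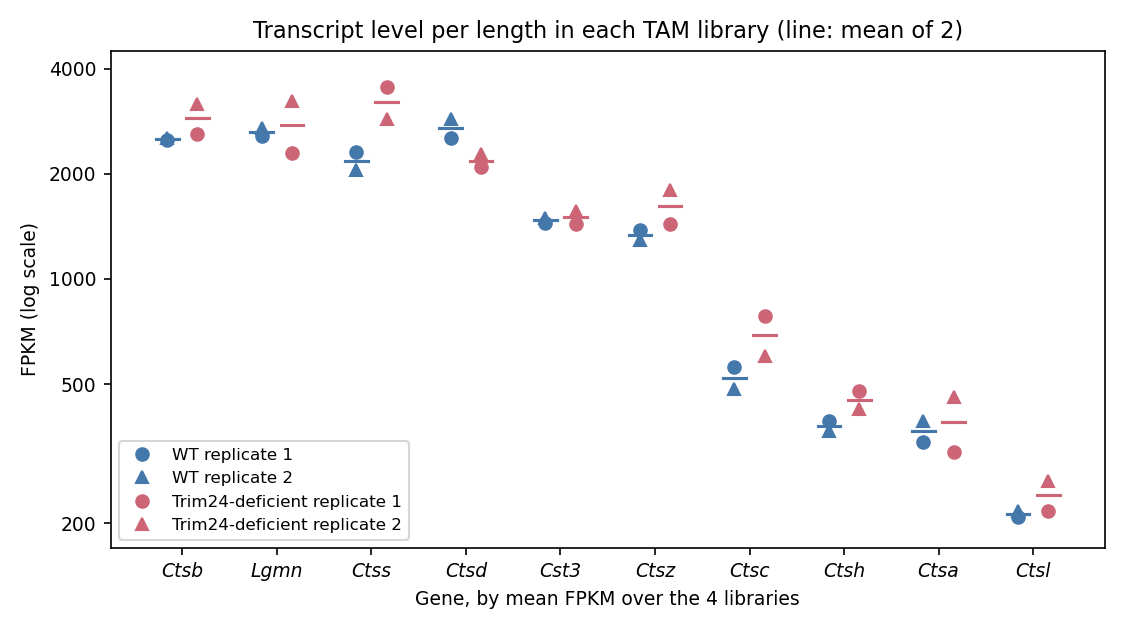
FPKM (log scale) of each of the 10 genes in the 4 TAM libraries, with WT in blue and Trim24-deficient in red, replicate 1 as circles, replicate 2 as triangles and a line at the mean of 2. Both deficient points lie above both WT points for Ctss, Ctsc, Ctsz, Ctsh and Ctsb and below them for Ctsd, and the points of Lgmn, Ctsa, Cst3 and Ctsl overlap.

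No gene of the 10 was called changed at a fold above 1.5 and an adjusted p under 0.05, where 0.372% of all genes tested were (edgeR quasi-likelihood test with Benjamini-Hochberg adjustment, 42 of 11302). Ctss was the 1 gene of the 10 with an unadjusted p under 0.05 in that test, against 12.2% of all genes. DESeq2 also called 0 of the 10, where it called 1.61% of all genes, but Ctss lay just outside its limit (log2 fold change 0.72, adjusted p 0.0501 by DESeq2). EdgeR with the replicate number as a block called 1, Ctss, where it called 5.61%, although the labels do not say that the numbers pair mice. The fitted log2 fold change, Trim24-deficient minus WT, was above 0 for 9 genes and below 0 for Ctsd, with a median of 0.336 beside −0.00586 for all genes tested. Without Trim24-deficient replicate 2 the median of the 10 was 0.175, and with library totals in place of TMM scaling it was 0.187 beside −0.154 for all genes. On the CPM scale both deficient libraries were above both WT libraries for 7 genes and below them for Ctsd, where 21.4% and 23.0% of all genes tested separated in those directions, and Ctsa and Lgmn overlapped. On the FPKM scale 5 genes were higher without overlap, where 12.3% of all genes tested were, 1 was lower, where 35.3% were, and 4 overlapped. Without Trim24-deficient replicate 2 the log2 fold changes were 0.19 for Ctsb, 0.24 for Ctsz, 0.16 for Ctsl and 0.10 for Cst3, and without Trim24-deficient replicate 1 that of Ctsd was −0.08.

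**Figure D2:**
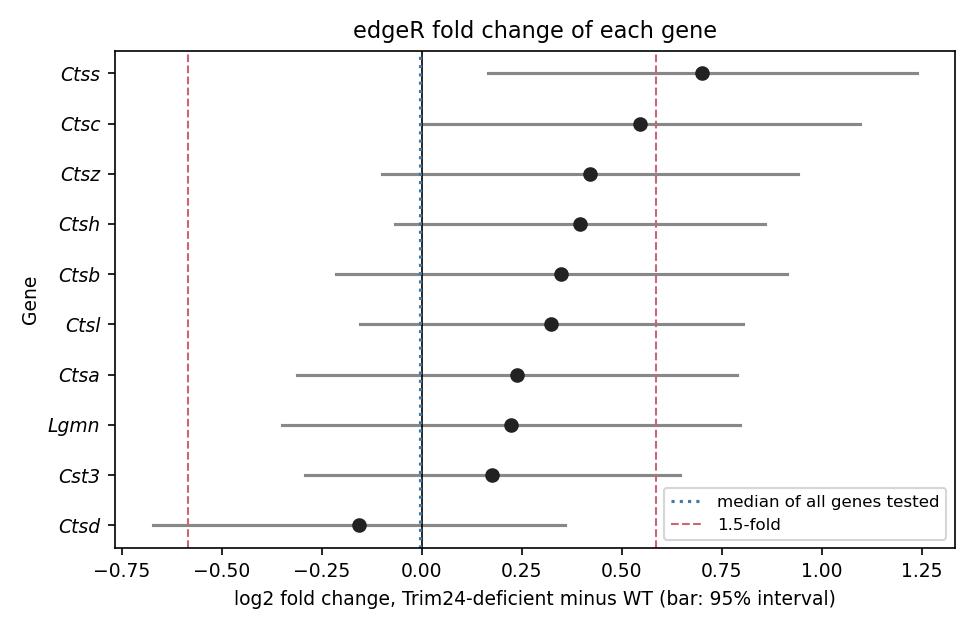
Fitted log2 fold change of each gene, Trim24-deficient minus WT, with its 95% interval from edgeR as a bar, dashed lines at 1.5-fold and a dotted line at the median of all genes tested (−0.00586). The interval of Ctss runs from 0.17 to 1.24 and lies above 0, while those of the other 9 genes include 0.

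Ctss, a cysteine cathepsin of antigen-presenting cells that stays active near neutral pH and makes the late cuts in the invariant chain, had the largest fitted difference of the 10 with all 4 libraries and no length correction. Over all genes tested, log2 fold change and transcript length had a Spearman correlation of −0.249. With a trend on length taken out of each library, that correlation was 0.006, and Ctsc exceeded Ctss (log2 0.71 against 0.60). Without Trim24-deficient replicate 1 Ctsz exceeded Ctss (0.59 against 0.56). The Ctss levels were 3031 and 2575 CPM in WT and 5011 and 4103 CPM in the deficient libraries. Both deficient libraries stood above both WT libraries, with replicate 1 the higher one in each group. The fold was 1.63 with a 95% interval of 1.12 to 2.36 (log2 0.70, SE 0.24), and the edgeR p of 0.0156 became an adjusted p of 0.275. Its FPKM was 2309, 2048, 3547 and 2861 in the order WT replicate 1, WT replicate 2, deficient replicate 1 and deficient replicate 2. Ctss (Entrez 13040) spans chr3:95526786-95556405 on the plus strand (GRCm38) with 8 exons in its longest basic coding transcript.

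Ctsc encodes cathepsin C (dipeptidyl peptidase I), which removes dipeptides and activates the granule serine proteases of neutrophils, mast cells and cytotoxic lymphocytes. It was at 3706 and 3047 CPM in WT and at 5479 and 4383 CPM in the deficient libraries. As with Ctss, the groups did not overlap and replicate 1 was the higher one in both. Its log2 fold change was 0.55 (SE 0.24, fold 1.46, 95% interval 0.998 to 2.14), with an adjusted p of 0.412 by edgeR's quasi-likelihood test. Ctsc (Entrez 13032) lies at chr7:88278024-88315861 on the plus strand.

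Ctsh, an aminopeptidase that also trims neuropeptides and surfactant precursors, showed the same order of libraries at a lower level. It was at 621 and 557 CPM in WT and at 816 and 734 CPM in the deficient libraries. The groups did not overlap, and the edgeR log2 fold change of 0.40 (SE 0.21, 95% interval −0.07 to 0.86) had an adjusted p of 0.469. Ctsh (Entrez 13036) spans chr9:90054267-90076095 on the plus strand with 12 exons. Ctss, Ctsc and Ctsh were the 3 genes that were higher in replicate 1 than in replicate 2 of the deficient group, and the other 7 were higher in replicate 2.

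Ctsb, a cathepsin with both endopeptidase and carboxypeptidase activity that is often secreted by tumors and their macrophages, had the highest count of the 10. It was at 11690 and 11390 CPM in WT and at 13120 and 16270 CPM in the deficient libraries. The WT libraries lay close together and the deficient ones apart, with coefficients of variation of 1.78% and 15.2%. The fold was 1.27 with a 95% interval of 0.861 to 1.88 and an adjusted p of 0.609 by edgeR's quasi-likelihood test, so a rise above 1.5-fold lies within the interval. Ctsb (Entrez 13030) spans chr14:63122462-63145923 on the plus strand with 10 exons.

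Ctsz, a carboxypeptidase whose precursor also binds integrins, was at 1948 and 1749 CPM in WT and at 2174 and 2772 CPM in the deficient libraries. The groups did not overlap and deficient replicate 2 was the highest. The log2 fold change was 0.42 (SE 0.23, 95% interval −0.10 to 0.94), with an adjusted p of 0.494 by edgeR's quasi-likelihood test. Ctsz (Entrez 64138) spans chr2:174427494-174439039 on the minus strand with 6 exons.

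Ctsl, a general lysosomal endopeptidase that processes the invariant chain in thymic epithelium, was the lowest of the 10 per length. It was at 720.9 and 715.7 CPM in WT and at 803.4 and 994.9 CPM in the deficient libraries, without overlap. On the FPKM scale the same libraries gave 209, 217, 216 and 264, and the groups overlapped through WT replicate 2 and deficient replicate 1. The fitted log2 fold change was 0.32 (SE 0.21), with an adjusted p of 0.571 by edgeR's quasi-likelihood test. Ctsl (Entrez 13039) spans chr13:64361890-64370772 on the minus strand with 9 exons.

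Ctsd, the aspartic protease of the lysosome and the gene with the highest mean FPKM of the 10 in WT, was the only one with a fitted difference below 0. Its CPM was 4877 and 5311 in WT and 4335 and 4801 in the deficient libraries. Both deficient libraries were below both WT libraries, though deficient replicate 2 came close to WT replicate 1. The fold was 0.897 with a 95% interval of 0.628 to 1.28 (log2 −0.16, SE 0.23), and the adjusted p was 0.826 by edgeR's quasi-likelihood test. On the FPKM scale Ctsd was at 2526 and 2872 in WT and at 2086 and 2276 in the deficient libraries. Ctsd (Entrez 13033) spans chr7:142375910-142387827 on the minus strand with 9 exons.

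Lgmn, legumain, was spread widely within the deficient group. It was at 4672 and 4723 CPM in WT and at 4520 and 6444 CPM in the deficient libraries. Deficient replicate 1 was the lowest of the 4 and deficient replicate 2 the highest, so the groups overlapped, with a coefficient of variation of 0.781% in WT and 24.8% in the deficient group. The log2 fold change was 0.22 (SE 0.26, 95% interval −0.35 to 0.80), with an adjusted p of 0.77 by edgeR's quasi-likelihood test, and it was −0.05 without deficient replicate 2. Lgmn (Entrez 19141) spans chr12:102394082-102439728 on the minus strand with 14 exons.

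Ctsa, the protective protein that holds neuraminidase 1 and beta-galactosidase together in the lysosome, also had its highest value in deficient replicate 2. It was at 1112 and 1223 CPM in WT and at 1117 and 1636 CPM in the deficient libraries, with overlap and a coefficient of variation of 26.7% in the deficient group. The log2 fold change was 0.24 (SE 0.25, adjusted p 0.738 by edgeR's quasi-likelihood test), and it was −0.06 without deficient replicate 2. Ctsa (Entrez 19025) spans chr2:164832872-164841032 on the plus strand with 16 exons. The partners of its complex had log2 fold changes near 0, of −0.01 for Neu1 (95% interval −0.416 to 0.399), 0.10 for Glb1 and 0.07 for Galns, and 0 of the 3 were called or had an unadjusted p under 0.05 by edgeR.

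Cst3, cystatin C, differed between scales. It was at 1119 and 1106 CPM in WT and at 1192 and 1322 CPM in the deficient libraries, higher without overlap on this scale. On the FPKM scale it was at 1449, 1496, 1434 and 1567 in the same order, and the groups overlapped. The log2 fold change was 0.18 (SE 0.21, 95% interval −0.29 to 0.65), with an adjusted p of 0.782 by edgeR's quasi-likelihood test. It was 0.03 with library totals in place of TMM scaling, and also 0.03 with the length trend taken out. Cst3 (Entrez 13010) spans chr2:148871722-148875512 on the minus strand with 3 exons.

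The counts behind these values ran from 2675 to 79204 per gene and library, with counting errors of 0.355% to 1.93%, and the coefficients of variation between replicates ran from 0.509% for Ctsl in WT to 26.7% for Ctsa in the deficient group. Exons of 5 genes overlap exons of another annotated gene. On the opposite strand these were Pltp and Neurl2 for Ctsa, Fdft1 for Ctsb, Gm47123 for Ctsl and Nelfcd for Ctsz. On the same strand, where strand cannot separate reads, they were Gm49369 for Ctsd and the pseudogene Gm49230 for Ctsl. The strand setting of the counting was not given in the sources used here. Expected counts were fractional in at least 1 library for Ctsa, Ctsb, Ctsc and Ctsl and whole in all 4 for the other 6 genes.

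On the FPKM scale the cysteine cathepsins made up more and the aspartic cathepsin less of the set in the deficient libraries. The 6 cysteine cathepsins together took 51.6% and 48.2% of the summed FPKM of the 10 genes in WT and 59.6% and 54.8% in the deficient libraries. Ctsd took 17.8% and 19.9% in WT and 13.7% in each deficient library. Both shares separated the groups, in opposite directions, and as shares of 1 sum they are not independent. Within the cysteine cathepsins Ctss differed most, with 16.2% and 14.2% in WT and 23.3% and 17.2% in the deficient libraries, while Ctsb took 17.5% and 17.6% against 17.1% and 19.1%. The ratio of Ctss to Ctsd FPKM, chosen after the values had been seen and given as a description, was 0.914 and 0.713 in WT and 1.70 and 1.26 in the deficient libraries. Ctss therefore stood below Ctsd in both WT libraries and above it in both deficient ones.

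**Figure D3:**
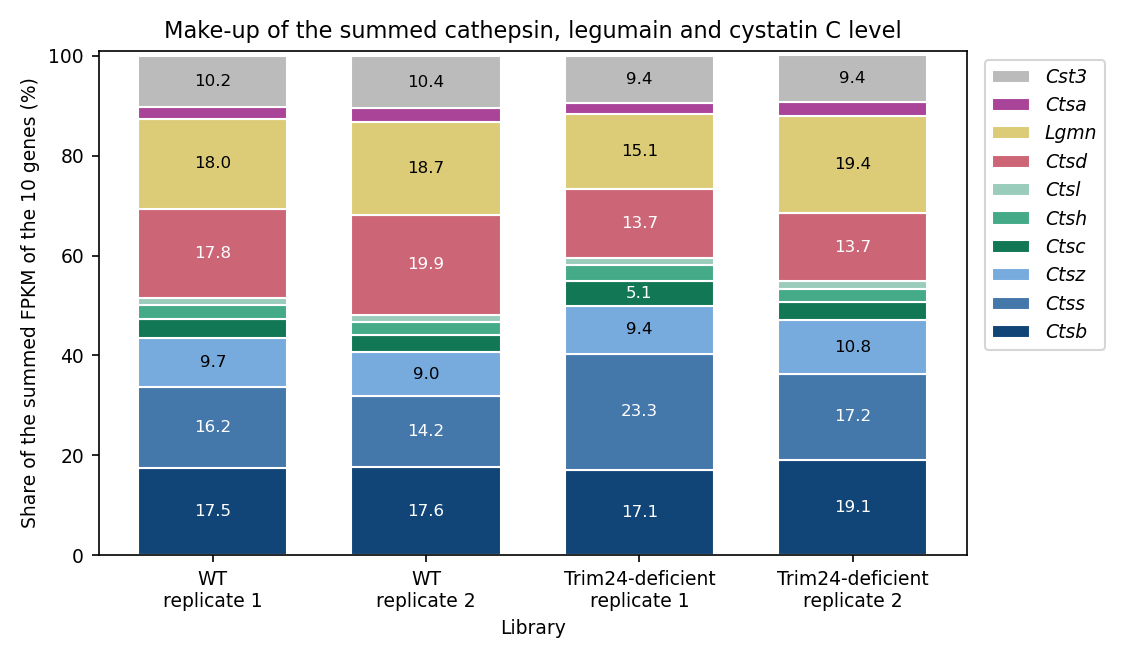
Share (%) of each gene in the summed FPKM of the 10 genes, 1 bar per library, with blue and green for cysteine cathepsins, red for Ctsd, yellow for Lgmn, purple for Ctsa and grey for Cst3. Ctsd takes 17.8% and 19.9% in the WT bars and 13.7% in both deficient bars, and Ctss is largest in Trim24-deficient replicate 1 at 23.3%.

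Cystatin C was set against the papain-like cathepsins as the ratio of Cst3 FPKM to the summed FPKM of the 6 cysteine cathepsins. Lgmn, Ctsd and Ctsa were not part of that sum, so the ratio does not describe cystatin C against every protease of the set. The summed cysteine cathepsin level was 7344 and 6949 FPKM in WT and 9055 and 9130 FPKM in the deficient libraries. The ratio was 0.197 and 0.215 in WT and 0.158 and 0.172 in the deficient libraries, with means of 0.206 ± 0.0127 and 0.165 ± 0.00937 (SD). Both deficient ratios were below both WT ratios, a difference of −0.32 on the log2 scale. An exact two-sided permutation test gave p = 0.333, the smallest value that 2 against 2 libraries allow. Cstb, stefin B, an intracellular inhibitor of the same proteases, was at 351 and 328 CPM in WT and at 411 and 514 CPM in the deficient libraries (log2 fold change 0.45, adjusted p 0.421 by edgeR). It was higher in both deficient libraries without passing the test.

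The other genes of the pathway were counted by list. Of 80 genes on 9 lists, 49 passed the filter on low counts. EdgeR's quasi-likelihood test called 1 higher in the deficient libraries and 0 lower (background 0.292% higher and 0.0796% lower). In that test 13 of the 49 had an unadjusted p under 0.05, where 12.2% of all genes tested did. DESeq2, which called 1.61% of all genes, called 4, all higher: Cd74, H2-DMa, H2-DMb1 and Napsa. EdgeR with the replicate block, which called 5.61% of all genes, called 10, all higher: these 4 with Cpq, Prtn3, Serpina3f, Serpina3g, Serpinb2 and Serpinb9. The edgeR counts given list by list are without the block unless stated, and these shares of all genes apply to them too. The median log2 fold change of the 49 list genes was 0.25, and 38 of them were above 0. Among all genes tested 49.4% were above 0. The gene called was Cd74, the invariant chain that Ctss and other cathepsins cut down to the peptide held in the MHC class II groove. Cd74 was at 2920 and 2270 CPM in WT and at 11100 and 9580 CPM in the deficient libraries, far apart and with no overlap. Its log2 fold change was 2.0 (SE 0.26, adjusted p 0.0133 by edgeR's quasi-likelihood test). The call was lost without WT replicate 2 (1.83, adjusted p 0.0826) and with limma on log2(FPKM + 1) (1.85, adjusted p 0.0782) or log2(FPKM + 0.1) (1.85, adjusted p 0.077). On the log2 scale the fitted difference of Cd74 was 2.0 where that of Ctss was 0.70.

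All 7 genes on the list of class II partners had a fitted difference above 0, and besides Cd74 none was called by edgeR, while 4 of the 7 had an unadjusted p under 0.05. H2-DMb1, a chain of the peptide exchange factor, was at 238 and 138 CPM in WT and at 627 and 431 CPM in the deficient libraries (log2 fold change 1.5, adjusted p 0.088 by edgeR, 5.51e-05 by DESeq2). H2-DMa, its partner chain, had a log2 fold change of 1.21 with an adjusted p of 0.099 by edgeR and 0.000458 by DESeq2. Ifi30, the thiol reductase that works beside cathepsins in the endosome, had a log2 fold change of 0.23, with overlapping groups. The median of this list was 0.90 beside 0.336 for the cathepsins, legumain and cystatin C. The monocyte marker sums given above also differed between the groups, and their part in these values was not tested.

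Of 15 other cathepsins, 4 passed the filter and 0 were called by edgeR, with 1 at an unadjusted p under 0.05. Ctsk, the collagen-degrading cathepsin of osteoclasts, was at 1.82 and 2.29 CPM in WT and at 5.32 and 7.60 CPM in the deficient libraries (log2 fold change 1.64, adjusted p 0.221 by edgeR), levels that rest on 9 to 37 counts. Ctso was at 69.5 and 74.0 CPM in WT and at 88.4 and 91.8 CPM in the deficient libraries, also higher without overlap, with a log2 fold change of 0.33 that was not called. Ctsf and Ctsw overlapped between the groups. The next cathepsin per length was Ctso, at 20.4 to 24.6 FPKM over the 4 libraries, where Ctsl, the lowest of the 10, was at 209 to 264 FPKM.

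Of the 9 serpins listed, 7 were tested, 5 were above 0 and 0 were called by edgeR, with a median of 0.90. An unadjusted p under 0.05 was reached by 3 in that test, and 4 were called under the replicate block. Serpina3g, a nuclear and cytosolic serpin that blocks cysteine cathepsins, was at 326 and 149 CPM in WT and at 993 and 483 CPM in the deficient libraries. It was higher without overlap, and its log2 fold change of 1.64 had an adjusted p of 0.167 by edgeR. Its counts were fractional and belong to a family of near-identical copies, so the split between Serpina3g and Serpina3f (log2 fold change 1.35, adjusted p 0.273 by edgeR) is uncertain. Serpinb6a was at 136 and 150 CPM in WT and at 82.4 and 137 CPM in the deficient libraries, with overlap.

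Among the 8 other proteases and peptidases listed, 7 were above 0 and 0 were called by edgeR, with 3 at an unadjusted p under 0.05 and a median of 0.36. Napsa, napsin A, an aspartic protease like Ctsd, was at 24.8 and 39.2 CPM in WT and at 65.6 and 67.2 CPM in the deficient libraries. It was higher there without overlap, with a log2 fold change of 1.05 and an adjusted p of 0.137 by edgeR and 0.0426 by DESeq2. Ctsd was lower without overlap, but the 95% interval of its log2 fold change ran from −0.672 to 0.358. Tpp1, a tripeptidyl peptidase, was the one below 0, at 333 and 410 CPM in WT and 264 and 366 CPM in the deficient libraries. Rnpep, an aminopeptidase, was at 235 and 223 CPM in WT and at 285 and 363 CPM in the deficient libraries (log2 fold change 0.50, adjusted p 0.374 by edgeR). Scpep1, a serine carboxypeptidase like Ctsa, was at 413 and 391 CPM against 486 and 446 CPM. Rnpep and Scpep1 were thus higher without overlap but did not pass the test, while Tpp1 overlapped.

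Genes that tag and sort lysosomal enzymes had a median log2 fold change of 0.01 over 11 tested genes, with 7 above 0, 0 called by edgeR and 1 at an unadjusted p under 0.05. Psap, the saposin precursor that travels to the lysosome through sortilin, was at 2440 and 1830 CPM in WT and at 2980 and 2920 CPM in the deficient libraries (log2 fold change 0.47, adjusted p 0.457 by edgeR). M6pr, the cation-dependent mannose 6-phosphate receptor, was at 566 and 435 CPM against 651 and 537 CPM and overlapped. The MiT/TFE factors that act on the E-box of lysosomal genes had a median of −0.17 over 4 genes, with 0 called by edgeR and 0 at an unadjusted p under 0.05. Tfe3 had a log2 fold change of 0.16, Tfeb of 0.02, Tfec of −0.35 and Mitf of −0.61 (adjusted p 0.417 by edgeR), and Tfeb was nearly level at 11.7 to 12.3 CPM. Beside these, the fitted log2 fold changes of the genes with an E-box in a window were −0.16 for Ctsd, 0.22 for Lgmn, 0.24 for Ctsa and 0.32 for Ctsl. Those of the genes with a window and no E-box were 0.18 for Cst3, 0.42 for Ctsz, 0.55 for Ctsc and 0.70 for Ctss, and the ranges overlapped.

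Of 9 serine proteases activated by cathepsin C, 3 passed the filter and 0 were called by edgeR, with 1 at an unadjusted p under 0.05. Gzmb, the granzyme of cytotoxic lymphocytes, was at 60.4 and 19.0 CPM in WT and at 109 and 12.5 CPM in the deficient libraries, so that the deficient group held both the highest and the lowest value. Prtn3, proteinase 3 of neutrophils and their precursors, rested on 1 and 2 counts in WT and 15 and 15 counts in the deficient libraries (adjusted p 0.149 by edgeR). The mast cell proteases Cma1 and Tpsb2 had at most 3 counts in any library. Gzmb was thus the one target of cathepsin C above 12.1 CPM in any library.

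**Figure D4:**
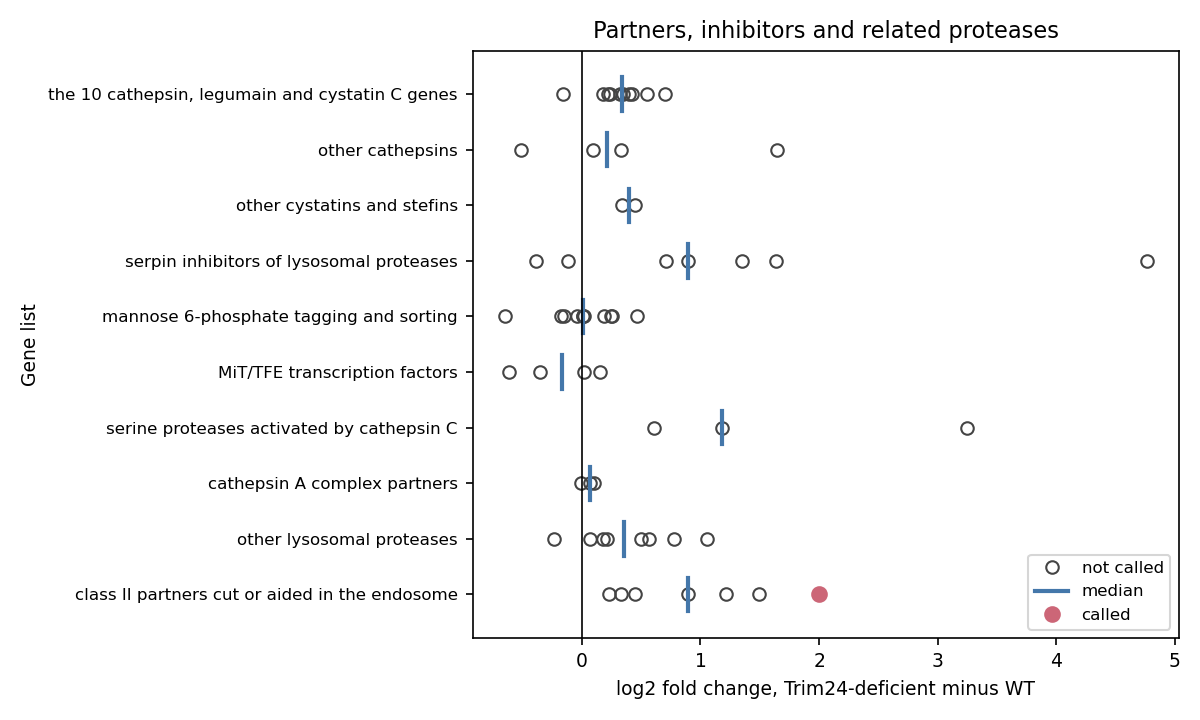
Fitted log2 fold change, Trim24-deficient minus WT, of every tested gene on each list, with the median of the list as a blue line, open circles for genes not called and a filled red circle for Cd74, the gene called. The class II list and the serpin list have medians of 0.90, and the list of tagging and sorting genes has a median of 0.01.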

How the data were processed

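RNA from the sorted TAMs was sequenced on a HiSeq instrument. Read alignment by the authors used Bowtie on GRCm38/mm10, and genes were quantified with RSEM (versions not given in the sources used here). The deposited tables hold, per gene, the expected counts (estimated, 76.6% to 77.7% of them whole within a tolerance of 0.005) and the FPKM that the authors computed from them, with a transcript length. A gene missing from a table was set to 0. Entrez identifiers were matched to symbols for 16698 of 16739 genes, and positions and exons were taken from the GRCm38 annotations.

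The 10 genes and all gene lists were chosen with earlier results of these data known. Expected counts were rounded, filtered (filterByExpr), TMM-scaled (factors 1.03, 1.08, 0.957 and 0.943) and tested with edgeR 4.0.16 (quasi-likelihood, R 4.3.3) on genotype over all 4 libraries, with Benjamini-Hochberg adjustment over 11302 genes and the study's limits of a fold above 1.5 and an adjusted p under 0.05. SE was the log2 fold change divided by the square root of F. DESeq2 1.42.0 and limma 3.58.1 on log2(FPKM + 1) were alternatives. The script was tested on simulated counts. The floor of 3 counts corresponds to 0.606 to 0.639 CPM. Intervals on fold changes came from the edgeR fit and include the spread between libraries. The counting errors, given in percent, cover counting only. All 10 genes were named. From each list, the called gene and up to 4 genes of highest mean FPKM were eligible by rule, and Napsa, Cma1 and Tpsb2 were named after their values had been seen. Replicate numbers are not stated to mark a shared litter or day.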

Additional observations from a re-analysis of the deposited data

How the results depend on the processing

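Under 14 alternative settings the 10 genes gave 140 fold changes, of which 136 kept their direction and their side of the threshold. The log2 fold change of Ctsa was −0.063 and that of Lgmn −0.054 without Trim24-deficient replicate 2, and they reached 0.492 and 0.461 without Trim24-deficient replicate 1. With the replicate number as a block, 1 of the 10 genes was called (Ctss, 0.70, adjusted p 0.00817), 10 list genes were called in place of 1, and 634 genes in all in place of 42. With the block and the length trend taken out, 1 of the 10 was called (Ctsc, 0.72, adjusted p 0.0333), 9 list genes and 419 in all. In the blocked fit the prior degrees of freedom were infinite, so the spread came from all genes together, and with 2 libraries per group the replicate numbers had a deviation correlation of 0.166 and are not known to pair mice. An unadjusted p under 0.05 with the 1.5-fold limit gave 1 of the 10. No leave-one-out fit called any of the 10 (0 to 0), while 0 to 14 list genes were called, and 25 to 652 genes in all (66 without WT replicate 1, 25 without WT replicate 2, 405 without Trim24-deficient replicate 1 and 652 without Trim24-deficient replicate 2). The list genes called were 4 with DESeq2 (165 in all), 2 with no filter on low counts and 0 with limma on log2(FPKM + 1) or log2(FPKM + 0.1) (23 and 20 in all, 14 and 11 of them higher). The difference in the summed share of the 10 genes was 0.2348 percentage points of FPKM and 0.4272 of expected counts. In leave-one-out it was 0.1234 to 0.3462 of FPKM. The log2 difference of the Cst3 ratio ranged from −0.384 to −0.258 in leave-one-out and was −0.268 on counts. The cause of these changes was not tested. Depth gave the 10 genes counting errors of 0.355% to 1.93%, and list genes with 1 to 3 counts, such as Prtn3 in WT, are limited by it.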
